A study of Arabidopsis thaliana with 6 samples.

Results

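Rubisco fixes CO2 in the chloroplast, and 2 genes close to that reaction are described here: rbcL, which encodes the large, catalytic subunit, and RCA, which encodes Rubisco activase. They were taken by symbol from the probe sets that listed a single gene, and each had 1 probe set, so they are 2 of 13286 genes with such a probe set. Transcripts were measured on Affymetrix ATH1 arrays in yaf9a yaf9b double-mutant seedlings, with 3 arrays, and in wild-type (WT) seedlings, with 3 arrays, each from an independent biological replicate. YAF9A and YAF9B are subunits of chromatin complexes that acetylate histones and exchange the histone variant H2A.Z. Both genotypes were in the Col-0 background and untreated. Seedlings grew on agar plates in short days (8 h light, 16 h dark) at 22 °C and were taken when 20 days old, at ZT8, as the light period closed. Each sample was a pool of about 250 mg of whole seedlings, so a value averages over leaf, stem and root cells. In such bulk tissue, fewer cells of a type and less RNA per cell cannot be told apart.

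Rubisco of plants is built from large subunits made inside the plastid and small subunits imported from the cytosol, with the help of chaperonins and dedicated assembly factors. The enzyme becomes blocked by tightly bound sugar phosphates, and Rubisco activase, an ATP-driven motor protein, pulls these inhibitors out. The pair therefore spans the plastid and the nuclear genome: rbcL is transcribed in the plastid, whereas RCA is transcribed in the nucleus, where its transcript follows the circadian clock in Arabidopsis. On assembly TAIR10.1, rbcL (ArthCp030) lies on the plastid chromosome from 54958 to 56397, and RCA (AT2G39730) lies on chromosome 2 from 16570746 to 16573692. RefSeq lists 3 transcripts for RCA, which is alternatively spliced into a longer, redox-regulated isoform and a shorter one. With 1 probe set for the gene, the isoforms were not separated, and where in either gene the probes lie is not given in the sources used here.

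Array medians lay between 5.99 and 6.06 on the log2 scale, a closeness that the normalisation brings about. Correlations across probe sets were 0.989 to 0.996 between mutant arrays and 0.993 to 0.995 between WT arrays. They were lower between genotypes, at 0.98 to 0.987. No probe set listing a single gene was matched to the mutated genes in the annotation used, so the genotype labels were not checked by their transcripts. As tissue checks, 6 nuclear genes of light harvesting and the photosystems averaged 12.99 to 13.07 in mutant arrays and 13.07 to 13.17 in WT arrays. The 4 measured root markers averaged 6.20 to 6.73 in mutant arrays and 6.17 to 6.59 in WT arrays. That root mean was carried by PYK10, at 12.15 in the mutant and 12.29 in WT, while the other 3 markers averaged 3.54 to 5.33 in the mutant and 3.55 to 4.98 in WT, below the array medians. Only 1 of the 4 stayed when probe sets under the 40th percentile of signal were left out. The part of tissue makeup in the values below was not tested.

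The rbcL signal was lower in all mutant arrays than in any WT array, but the difference did not pass the test across the whole array. Mutant arrays 1, 2 and 3 read 10.50, 10.76 and 10.67 on the log2 scale, and WT arrays 1, 2 and 3 read 11.24, 10.95 and 10.80. The genotypes did not overlap, but the gap between the highest mutant array and the lowest WT array was only 0.04, smaller than the spread within either genotype (range 0.26 in the mutant and 0.44 in WT). The means were 10.64 ± 0.13 in the mutant and 11.00 ± 0.22 in WT (SD, n = 3 each). That is a log2 change of -0.35 with an SE of 0.13 (95% interval -0.65 to -0.05), or 0.783 of the WT signal. The unadjusted limma p was 0.0262, a level at which 14.4% of all probe sets were lower (unadjusted p under 0.05). The Benjamini-Hochberg adjusted limma p was 0.12, over 22746 probe sets. An exact permutation test of the arrays gave p = 0.1 (two-sided), the smallest value that 3 arrays against 3 allow. Across the array, 15.9% of probe sets had every mutant array below every WT array, so the separation of rbcL alone is common in these data. WT array 1 carried a large part of the difference, as the log2 change without it was -0.23 (limma adjusted p = 0.285).

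RCA showed no difference that passed the test, and its interval was narrow. Mutant arrays 1, 2 and 3 read 13.85, 13.95 and 13.91, and WT arrays 1, 2 and 3 read 13.93, 13.81 and 13.80. The genotypes overlapped, since WT array 1 lay above 2 of the 3 mutant arrays. The means were 13.90 ± 0.05 in the mutant and 13.85 ± 0.07 in WT (SD, n = 3 each). The log2 change was 0.06 with an SE of 0.08 (limma adjusted p = 0.727, unadjusted p = 0.517), and the exact permutation test gave p = 0.3 (two-sided). The 95% interval ran from -0.14 to 0.25, which corresponds to 0.91 to 1.19 of the WT signal. The direction turned with cyclic loess normalisation (log2 change -0.040, limma adjusted p = 0.785).

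**Figure D1:**
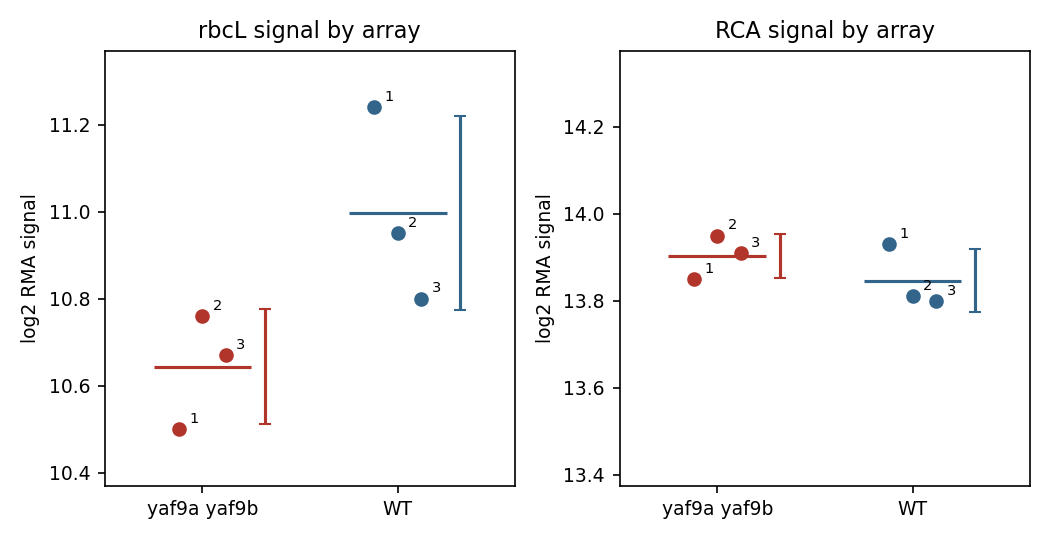
Signal of rbcL (left) and RCA (right) on each array, in log2 RMA units, with both axes spanning the same range. Points are arrays labelled by replicate number, horizontal lines are means and bars are the SD over 3 arrays. The mutant arrays of rbcL lie at 10.50 to 10.76, below the WT arrays at 10.80 to 11.24, whereas those of RCA, at 13.85 to 13.95, overlap the WT arrays at 13.80 to 13.93.

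Neither member was among the 13.1% of probe sets that passed the limma threshold (adjusted p under 0.05). The spread between replicates differed between the members. The SD pooled over both genotypes was 0.184 for rbcL, below the median of 0.232 over plastid-encoded genes, and 0.0623 for RCA. Only 8.91% of probe sets had a smaller SD than RCA, against 75.3% for rbcL. RCA also sat near the top of the scale, since the highest signal on any array was 14.03 to 14.16. Of the 63 probe sets with a mean log2 signal of at least 13, 1 passed the limma threshold (1.59%) and 3 had an unadjusted p under 0.05. Their log2 changes ran from -0.34 to 0.23, with a median size of 0.05 against 0.14 over all probe sets. Whether signals that high are compressed, and what part this has in the RCA value, was not tested.

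Set against RCA on the same array, rbcL lay lower in every mutant array than in any WT array, in a test that could not reach 0.05. Since probe sets differ in how strongly they bind, the log2 difference between both signals has no meaning as a level, and only its shift between genotypes is read here. The difference rbcL minus RCA was -3.35, -3.19 and -3.24 in mutant arrays 1, 2 and 3, and -2.69, -2.86 and -3.00 in WT arrays 1, 2 and 3. All mutant arrays lay below all WT arrays, with a gap of 0.19 against 0.04 for rbcL alone. The means were -3.26 ± 0.08 in the mutant and -2.85 ± 0.16 in WT (SD, n = 3 each), a shift of -0.41. The exact permutation test gave p = 0.1, the smallest possible here, and 0.3 after adjustment over the 3 within-array comparisons made. The shift lay between -0.485 and -0.33 when each array was left out in turn, and was -0.35 after cyclic loess.

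The plastid genome as a whole was the main point of comparison for rbcL. Of 69 plastid-encoded genes with a probe set, 20 fell and 0 rose (limma adjusted p under 0.05). Among all probe sets, 6.61% fell and 6.52% rose. At an unadjusted p under 0.05, 43 plastid genes were lower and 0 higher. Of all 22746 probe sets, 3282 (14.4%) were lower and 3035 higher at that level. The count of falls was 8 without mutant array 2, 13 without mutant array 1 and 0 with a minimum change of 1.5-fold. The median log2 change of the 69 was -0.44, against 0.01 over all probe sets tested. With -0.35, rbcL was close to that median: 42 plastid genes had a more negative change, 25 a less negative one, and psbL, a small subunit of photosystem II, had the same. By complex, the median log2 change was -0.35 over 5 genes of photosystem I, -0.40 over 15 of photosystem II, -0.43 over 6 of the cytochrome b6f complex, -0.79 over 6 of the ATP synthase and -0.58 over 10 of the NDH complex. It was -0.34 over 4 genes of the plastid RNA polymerase and -0.30 over 15 of plastid ribosomal proteins.

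Measured against the other plastid genes on the same array, rbcL did not shift beyond the spread between replicates. The rbcL signal minus the median of the other 68 plastid genes was 1.76, 1.65 and 1.485 in mutant arrays 1, 2 and 3, and 1.665, 1.26 and 1.585 in WT arrays 1, 2 and 3. The genotypes overlapped, with WT array 2 lowest. The means were 1.632 ± 0.138 in the mutant and 1.503 ± 0.214 in WT (SD, n = 3 each), a shift of 0.13 (exact permutation p = 0.6, 0.6 after adjustment over the 3 comparisons). Without WT array 2, on which the 68 genes were highest, the shift was 0.01. With the mean of the 68 genes in place of the median, an alternative chosen after seeing the data, it was 0.16 (exact permutation p = 0.5).

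The labelling kit starts from the poly(A) tail of a transcript, which most plastid transcripts lack. Plastid and nuclear signals on these arrays therefore need not measure the same fraction of their RNA, and the part of this in the plastid values was not tested.

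**Figure D2:**
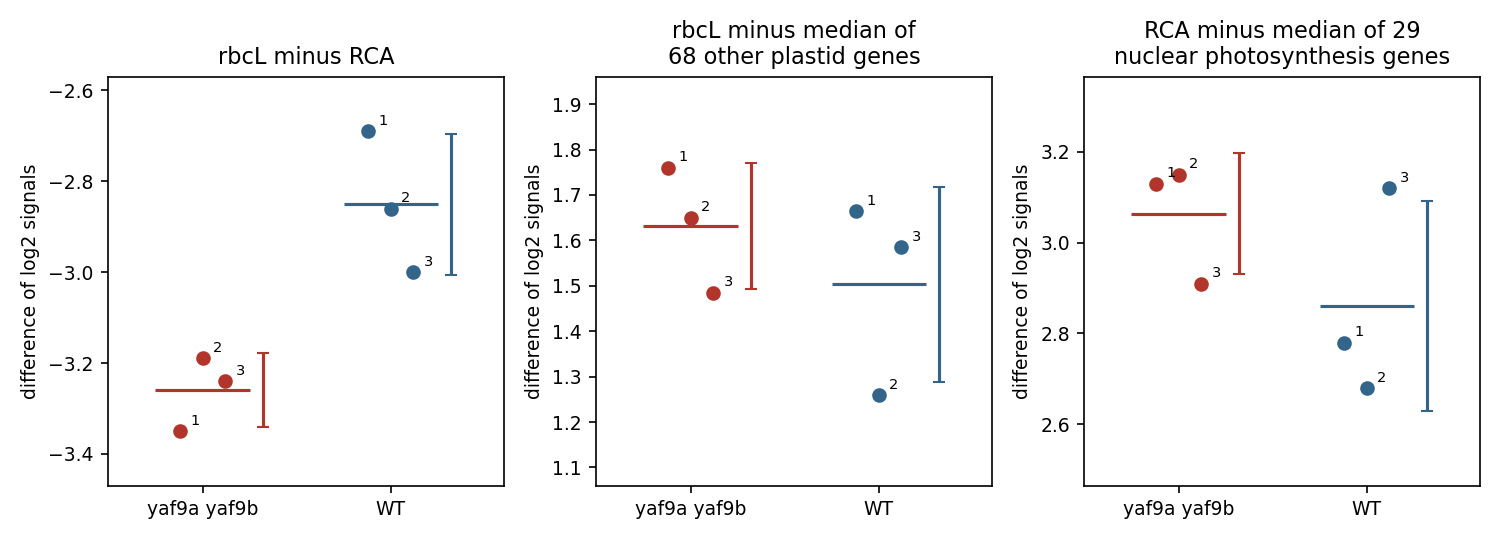
Differences of log2 signals within an array, for rbcL minus RCA (left), rbcL minus the median of the other 68 plastid genes (middle) and RCA minus the median of 29 nuclear photosynthesis genes (right). Points are arrays labelled by replicate number, lines are means and bars the SD over 3 arrays. The genotypes are apart in the left panel, with mutant arrays at -3.35 to -3.19 and WT arrays at -3.00 to -2.69, and overlap in the other panels.

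The measured genes next to rbcL on the plastid chromosome had very unequal log2 changes, of which those on one side passed the test. On one side lie atpB and atpE, from 52660 to 54156 and from 52265 to 52663, which encode subunits of the plastid ATP synthase and are transcribed away from rbcL. Their log2 changes were -0.16 with an SE of 0.08 for atpB and -0.08 with an SE of 0.09 for atpE, and neither passed (limma adjusted p = 0.26 and 0.621). On the other side lies accD, from 57075 to 58541, which encodes a subunit of the acetyl-CoA carboxylase that starts fatty acid synthesis. It read 6.15, 6.08 and 5.34 in mutant arrays 1, 2 and 3, and 7.25, 7.51 and 6.92 in WT arrays 1, 2 and 3, with no overlap. This was the most negative change of the 69 plastid genes, at -1.37 with an SE of 0.232 (limma adjusted p = 0.0099), or 2.58-fold lower. Beyond it, psaI, from 59247 to 59360, encodes a small subunit of photosystem I. It read 8.40, 8.61 and 8.36 in mutant arrays and 9.70, 9.73 and 9.28 in WT arrays, and was 2.16-fold lower (log2 change -1.11 with an SE of 0.139, limma adjusted p = 0.00356).

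Within arrays, these neighbours were compared with rbcL, 4 comparisons chosen after the data were seen. The accD signal minus that of rbcL averaged -4.79 ± 0.50 in the mutant and -3.77 ± 0.29 in WT (SD, n = 3 each), a shift of -1.02 with no overlap. For psaI the shift was -0.76, from means of -2.19 ± 0.11 in the mutant and -1.43 ± 0.18 in WT, again with no overlap. For atpE the shift was 0.27 with no overlap, and for atpB it was 0.19 with overlap. The exact permutation p was 0.1 for accD, psaI and atpE, the smallest possible with 3 arrays against 3, and 0.4 for atpB, or 0.133 and 0.4 after adjustment over the 4 comparisons. In genome order, rbcL thus sat between a pair of genes with log2 changes nearer 0 and a pair with falls of over 1 on the log2 scale. The pairs also differed in signal. Means in the mutant and WT were 13.38 and 13.54 for atpB and 13.66 and 13.74 for atpE. These lie above 13, where log2 changes of probe sets were small. Means were 5.86 and 7.23 for accD and 8.46 and 9.57 for psaI. The part of signal level in this contrast was not tested.

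The plastid genes with the smallest p-values were ndhJ, ndhK, psaI and atpH. The products of ndhJ and ndhK belong to the NDH complex, a route for cyclic electron flow at photosystem I, and that of atpH is a subunit of the ATP synthase. These 3 genes fell by 0.96, 0.95 and 0.87 on the log2 scale (limma adjusted p = 0.00223, 0.00286 and 0.00368).

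**Figure D3:**
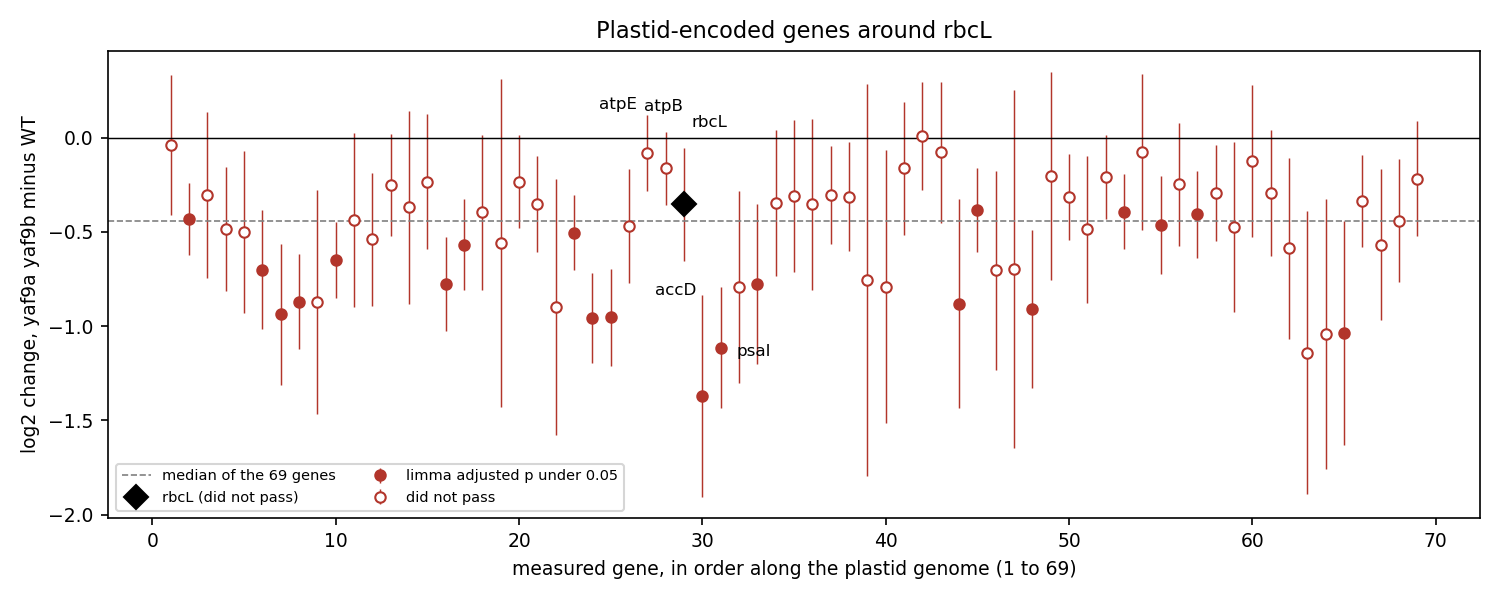
Log2 change (yaf9a yaf9b minus WT) of the 69 measured plastid-encoded genes in their order along the plastid genome. Points are limma estimates with 95% intervals, filled where the adjusted p was under 0.05, the diamond is rbcL and the dashed line is the median of -0.44. The estimate for rbcL, at -0.35, lies near that median, between atpE and atpB at -0.08 and -0.16 and accD and psaI at -1.37 and -1.11.

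The nuclear partners of rbcL were read next. In the annotation used, no probe set listing a single gene was matched to the 4 small-subunit genes, RBCS1A, RBCS1B, RBCS2B and RBCS3B. They were not analysed here. Of 15 genes listed for folding and assembly of Rubisco, 8 were measured, and 0 rose and 0 fell (limma adjusted p under 0.05). Across all probe sets, 6.52% rose and 6.61% fell. At an unadjusted p under 0.05, 1 was higher and 1 lower, against 3035 higher and 3282 lower (14.4%) of all 22746 probe sets. In so small a list, these counts are near the shares of all probe sets. The median log2 change of the 8 was -0.01. BSD2 (AT3G47650), which holds assembled large subunits until small subunits bind, had a log2 change of -0.15 with an SE of 0.094, and RAF2 (AT5G51110) had 0.05 with an SE of 0.118. Among subunits of chloroplast chaperonins, CPN60B2 (AT3G13470) had 0.17, CPN60B4 (AT1G26230) had 0.05 and CPN60B3 (AT5G56500) had -0.30. These were listed as a family, and whether each folds the large subunit was not tested. AT3G60210, a chloroplast co-chaperonin of the GroES type, had the highest value, 0.35 with an SE of 0.118. It read 9.49, 9.56 and 9.79 in mutant arrays and 9.37, 9.34 and 9.08 in WT arrays, without overlap but also without passing (limma adjusted p = 0.0947).

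Of 6 genes listed for the regulation of Rubisco or its activase, 3 were measured, and all had negative log2 changes, with a median of -0.29. Of all 22746 probe sets, 11133 had a negative log2 change. None of the 3 passed by limma, and 2 had an unadjusted p under 0.05, a level at which 14.4% of all probe sets were lower. CBBY (AT3G48420), a phosphatase that destroys an inhibitory sugar phosphate made by Rubisco, read 10.07, 10.19 and 10.42 in mutant arrays and 10.74, 10.55 and 10.45 in WT arrays. Its log2 change was -0.35 with an SE of 0.121 (limma adjusted p = 0.0974). It passed with array quality weights (0.0298) and without mutant array 3 (0.049). TRXF2 (AT5G16400), a chloroplast thioredoxin of the f type, the class that activates the longer activase isoform in the light, had -0.29 with an SE of 0.11 (limma adjusted p = 0.129). LSMT-L (AT1G14030), a protein methyltransferase whose pea counterpart modifies the Rubisco large subunit, had -0.11 with an SE of 0.115 (limma adjusted p = 0.593). Whether the Arabidopsis protein acts on Rubisco was not tested.

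The remaining steps of the Calvin-Benson cycle, which regenerate the CO2 acceptor, were represented by 4 of 20 genes, all with positive log2 changes (median 0.20). Of all 22746 probe sets, 11613 had a positive log2 change. The mean signal of the 4 genes was 11.13 to 11.36 in mutant arrays and 10.91 to 11.10 in WT arrays, narrowly without overlap. By gene, 2 of the 4 had every mutant array above every WT array, as did 3559 of all 22746 probe sets. Of these 4 genes, 1 rose, against 6.52% of all probe sets: PGK2 (AT1G56190), a phosphoglycerate kinase. It read 10.72, 10.64 and 10.82 in mutant arrays and 10.33, 10.44 and 10.28 in WT arrays, with no overlap, a log2 change of 0.38 with an SE of 0.09 (1.3-fold higher, limma adjusted p = 0.0316). The call ended without each array in turn (limma adjusted p from 0.0563 to 0.0854). What part PGK2 has in the cycle in these seedlings was not tested, and PGK1, also listed, was not measured. CFBP2 (AT5G64380), a plastid fructose-bisphosphatase, had 0.25. PRK, phosphoribulokinase, which makes the acceptor itself, had 0.14, and SBPASE, sedoheptulose-bisphosphatase, had 0.06. None of these 3 passed (limma adjusted p = 0.191, 0.456 and 0.736).

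Photorespiration recovers carbon after Rubisco has taken up O2 instead of CO2. Of 21 genes, 8 were measured, and 0 rose and 0 fell by limma, against 6.52% and 6.61% of all probe sets. None of the 8 had an unadjusted p under 0.05, a level at which 14.4% of all probe sets were lower. The median log2 change of the 8 was -0.11. The smallest p-values belonged to GLDH3 (AT1G32470), an H-protein of glycine decarboxylase, with -0.20, and HPR1 (AT1G68010), the peroxisomal hydroxypyruvate reductase, with -0.14 (limma adjusted p = 0.263 and 0.312). Of 33 nuclear genes for light harvesting, the photosystems and their partners, 6 were measured and 1 fell, against 6.61% of all probe sets. This was LHCB4.2, whose product belongs to the photosystem II antenna, and it read 12.87, 12.86 and 12.99 in mutant arrays and 13.22, 13.33 and 13.17 in WT arrays. Its log2 change was -0.33 with an SE of 0.088 (limma adjusted p = 0.0434), a call that ended without each array in turn (0.0521 to 0.158).

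RCA was set against these nuclear genes, 29 in all, of which 1 rose and 1 fell (median log2 change -0.05), against 6.52% of all probe sets that rose and 6.61% that fell. The RCA signal minus the median of the 29 was 3.13, 3.15 and 2.91 in mutant arrays 1, 2 and 3, and 2.78, 2.68 and 3.12 in WT arrays 1, 2 and 3. The genotypes overlapped through mutant array 3 and WT array 3. The means were 3.06 ± 0.13 in the mutant and 2.86 ± 0.23 in WT (SD, n = 3 each), a shift of 0.20 (exact permutation p = 0.2, 0.3 after adjustment over the 3 comparisons). With the mean of the 29 genes in place of their median, chosen after seeing the data, the shift was 0.09 (exact permutation p = 0.3), so its size depended on how the other genes were summarised.

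**Figure D4:**
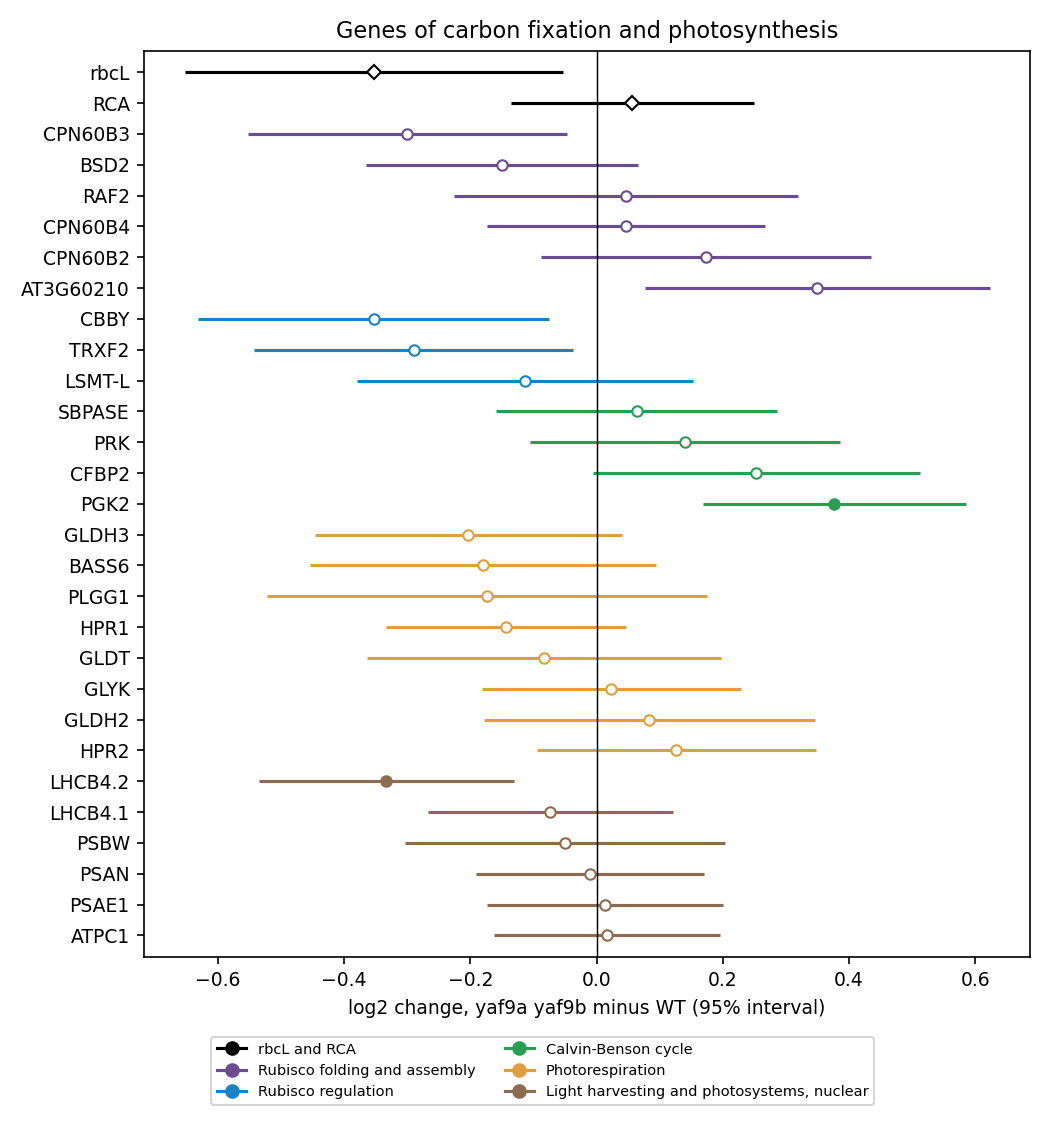
Log2 change (yaf9a yaf9b minus WT) of rbcL, RCA and 27 of the 29 nuclear genes of carbon fixation and photosynthesis, grouped by role. Points are limma estimates with 95% intervals, filled where the adjusted p was under 0.05. The filled points are PGK2 at 0.38 and LHCB4.2 at -0.33, and the interval of RCA spans 0.

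Genes that could act on the rbcL transcript itself were hardly covered by the annotation used, which listed no gene for 8730 probe sets. Of 20 nuclear genes for plastid transcription, only RPOTMP (AT5G15700), a phage-type RNA polymerase of plastids and mitochondria, was measured, with a log2 change of 0.02 and an SE of 0.14. The lists on plastid RNA stability, which includes MRL1, a protector of the rbcL transcript, and on regulators of photosynthesis genes had 0 measured genes and were not analysed here. The root markers with the smallest p-values were the peroxidase gene AT5G17820 and PYK10, a beta-glucosidase of root ER bodies. Their log2 changes were 0.63 with an SE of 0.293 and -0.15 with an SE of 0.149. Of the 4 markers, 0 passed by limma, against 13.1% of all probe sets, and 0 had an unadjusted p under 0.05.

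The genes whose signals followed the members most closely over the 6 arrays are given as a description, by Pearson's r against 13435 other probe sets. With so many candidates and so few arrays, high values arise easily. Closest to rbcL were AT5G66550, AT2G24530, AT1G02750, CcdA (AT5G54290) and AT5G65840, with r from 0.981 to 0.987. Of these, AT5G65840 passed the limma threshold (log2 change -0.56, adjusted p = 0.0318). CcdA is a thylakoid protein that passes reducing power across the membrane for cytochrome assembly. Among plastid genes, ccsA was closest (r = 0.976), and its product also serves the attachment of heme to c-type cytochromes. It was followed by petB of the cytochrome b6f complex (0.935), cemA of the plastid envelope (0.917), clpP of the Clp protease (0.908) and rpoC1 of the plastid RNA polymerase (0.882). Of these 5 plastid genes, cemA and clpP passed, with log2 changes of -0.78 and -0.38 (limma adjusted p = 0.0298 and 0.0381). The call of clpP ended when any single array was left out, and those of AT5G65840 and cemA ended unless that array was WT array 3. After each genotype's mean was removed, r with rbcL was 0.981 for ccsA and 0.694 to 0.85 for the other 4 plastid genes. For the 5 nuclear genes closest to rbcL it was 0.964 to 0.997. All were picked for a high r over the same arrays, so these values are no separate support. Closest to RCA were AT3G13740, AT4G34480, AT5G04160, AT5G47830 and AT5G51970, with r from 0.973 to 0.991, and none of these 5 passed the limma threshold (adjusted p from 0.44 to 0.733).

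The members' changes were recomputed under each alternative setting. For rbcL the log2 change stayed negative in all 13 alternatives, from -0.45 without WT array 3 to -0.23 without WT array 1, and the limma adjusted p missed 0.05 in each. The smallest were 0.0703 after cyclic loess and 0.073 without WT array 3. For RCA it ran from -0.040 to 0.098, and no adjusted p was below 0.592.

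**Figure D5:**
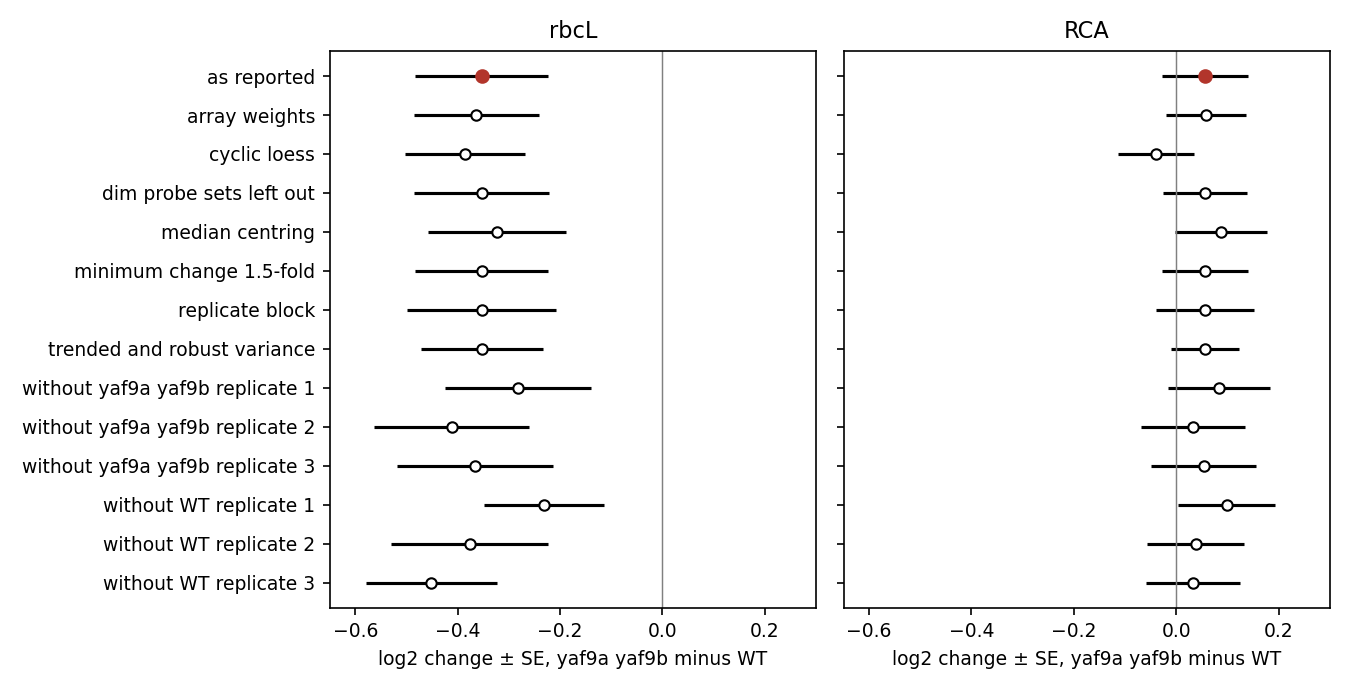
Log2 change (yaf9a yaf9b minus WT) of rbcL (left) and RCA (right) as reported, in red, and under each alternative setting. Points are limma estimates and bars are SEs. The rbcL estimates lie between -0.45 and -0.23, and the RCA estimates lie between -0.040 and 0.098, with the one below 0 from cyclic loess.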

How the data were processed

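From each sample, 500 ng of total RNA was labelled by a kit that reads from the 3' end and put on 1 ATH1 array, per the labels' protocols. The authors deposited log2 values, made by RMA in the affy package per the submitters' processing notes. Tool versions, scan dates and batches were not given in the sources used here. RMA makes the arrays' distributions nearly equal, which removes any shift common to most transcripts, and how precise a value is depends on the number of arrays.

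Arrays were grouped by title. After 64 control probe sets were left out of 22810, limma 3.58.1 in R 4.3.3 (lmFit, eBayes, two-sided, no block) was fitted to 22746, with Benjamini-Hochberg adjustment over all. Fits were tested on simulated data. Exact permutation tests used scipy 1.17.1.

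GEO's platform annotation listed 1 gene for 13513 probe sets, several for 503 and none for 8730. By gene ID, 13436 matched RefSeq (TAIR10.1). Gene lists used the brightest probe set per gene, and 34 of 143 listed loci were measured. Mitochondrion-encoded genes had 0 matches and were not analysed here. No sequences are shown. Members and lists were chosen with earlier results of these data known. Named genes were the members, the 2 nearest measured plastid genes on each side of rbcL, the measured Rubisco folding, assembly and regulation genes except 2 that are counted but not reported here, up to 4 passing genes of each other list by p or the 2 lowest, and the 5 most alike in pattern. CFBP2, PRK, SBPASE and psbL were picked with their values in view. The alternatives comprised cyclic loess, median centring, a trended and robust variance, array weights, leaving out probe sets under the signal's 40th percentile, a 1.5-fold minimum, the replicate number as a block and leaving out each array. RCA had 1 probe set, so the planned mean over probe sets was not needed.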

Additional observations from a re-analysis of the deposited data

How the results depend on the processing

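The calls of rbcL and RCA, neither past the threshold, were the same in every alternative run. RCA turned to -0.040 with cyclic loess, and the cause was not tested. Leaving out 1 array gave log2 changes of -0.45 to -0.23 for rbcL and 0.033 to 0.098 for RCA, within-array shifts of -0.485 to -0.33 for rbcL minus RCA, 0.01 to 0.21 for rbcL minus the other plastid genes and 0.11 to 0.33 for RCA minus the nuclear genes. The count of 2985 changed probe sets was 963 to 2684 with 1 array fewer, 1233 with the replicate number as a block and 96 with a 1.5-fold minimum, which raises the bar by construction. That minimum also ended the calls of all 10 other named genes that had passed, and left 0 of the 20 plastid genes that fell. For replicate numbers 1, 2 and 3, the residuals of the mutant and WT arrays had correlations of -0.21, 0.01 and -0.32. With 3 arrays per genotype, these values cannot show whether arrays of the same number shared a batch. Batches were not given, so this was not tested. Blocking on the replicate number gave a limma adjusted p of 0.217 for rbcL and 0.779 for RCA. It ended the calls of PGK2 (0.103), LHCB4.2 (0.121), AT5G65840 (0.0922), cemA (0.0609) and clpP (0.0966). The plastid genes that fell numbered 13 with the block, 29 with array weights and 8 to 28 leaving out 1 array. LHCB4.2 and clpP also missed the threshold after median centring (0.0631 and 0.0577). CPN60B3 passed without WT array 1 (0.0468), petB in 4 alternatives (the lowest 0.0277) and rpoC1 in 3 (the lowest 0.0343). Changes near 0 turned sign: RAF2 was -0.00024 with cyclic loess and ran from -0.068 to 0.15 leaving out 1 array, CPN60B4 was -0.00031 with array weights and ran from -0.03 to 0.10, SBPASE ran from -0.0033 to 0.12, RPOTMP from -0.12 to 0.10 and PYK10 from -0.25 to 0.017. With 3 arrays per genotype, the exact tests could not go below 0.1.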
